A study of Homo sapiens with 26 samples.

Results

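The untreated baseline of 2 human lung cancer cell lines, NCI-H1975 (H1975) and NCI-H1299 (H1299), was compared on 9 of the 26 arrays of the series. These are the 4 H1975 and 5 H1299 arrays whose titles name PBS (phosphate-buffered saline), the vehicle of the MYC-inhibiting miniprotein Omomyc. The labels call H1975 a lung adenocarcinoma and H1299 a lung carcinoma, and both were grown in RPMI1640 medium with glutamine and serum before PBS was added. The remaining arrays hold cells given Omomyc at 12.8 µM, and A549 cells, another lung cancer line. All 17687 genes with a single symbol were tested. H1975 is known as a line with a mutant EGF receptor, and H1299 as a line raised from a lymph node metastasis. Each is 1 established line, so tumour type, genotype and culture history cannot be told apart as sources of a difference. The question is which gene programs separate the lines before any treatment.

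The programs described are of 4 kinds. Epithelial cells hold together through cadherins, tight junctions and desmosomes, and carcinoma cells can trade this state for a mesenchymal one under ZEB, SNAI and TWIST transcription factors. ATF4 is a transcription factor made in greater amounts when translation is checked by stress kinases, and it turns on amino acid synthesis, amino acid import and tRNA charging genes. The cell cycle genes fall into G1 control, DNA replication and mitosis. Immune genes of carcinoma cells include interferon-stimulated genes, the antigen presentation machinery and cytokines driven by NF-kB.

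Levels are deposited log2 values, so a difference of 1 is a doubling of signal. Group levels are means ± SD (n = 4 for H1975, n = 5 for H1299). Differences are H1975 minus H1299, and the number after ± is the standard error from limma. P-values were adjusted by Benjamini-Hochberg over all genes. A gene is called at an adjusted p under 0.05. The labels say biological replica and nothing more about separate cultures, so p-values measure the spread between these arrays, which may be technical. Probe sets of background sequence averaged between 2.37 and 6.89 on the 9 arrays, and 8393 genes had a mean over the 9 arrays above 6.89. Where a group lies under 6.89 its true level is uncertain, and so is the size of the difference. The first principal component carried 81.2% of the variance and separated the lines. The second (7.5%) followed 3 runs, sets of arrays with like value distributions that no label names. Each run held both lines, with replicate 1 of both lines in run 1, replicates 2 and 3 in run 2, and the others in run 3.

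Of the 17687 genes, 7160 were called (40.5%), 3624 higher in H1975 (20.5%) and 3536 higher in H1299 (20.0%). The median difference of all genes was -0.02 and the median absolute difference 0.50. Differences of at least 3 were found in 686 called genes higher in H1975 and 523 higher in H1299. The groups did not overlap in 6092 genes (34.4%). With the run as a block 8432 genes were called (4003 and 4429). Centring each array on its own median moved the median of all genes to -0.18 and gave 7774 calls (3313 and 4461), so differences near that shift depend on the scaling. In the Omomyc arrays of the same lines, which share no array with the PBS groups, 7642 genes were called (43.2%). Of the 7160 genes called under PBS, 5736 (80.1%) were called there with the same sign, which is 75.1% of the calls there, and 56 with the opposite sign. These arrays repeat the measurement, not the lines.

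Among called genes above the median level, the 15 largest differences toward H1975 were those of C3, S100A6, RGS4, CHI3L1, TGFBI, IFI16, KRT19, PRDX2, EDIL3, THBS1, CPA4, AKR1C3, TXNIP, LPCAT2 and LOX, between 10.00 and 12.93. C3, the central complement component, was at 15.44, 14.97, 15.65 and 15.24 in the H1975 arrays and 1.77, 3.80, 2.16, 1.97 and 2.28 in the H1299 arrays. S100A6, a calcium-binding protein gene, was at 14.78 ± 0.35 against 2.87 ± 0.41, a difference of 11.91 ± 0.26 (adjusted p = 1.82e-13). The lowest H1975 array thus lay far above the highest H1299 array for both genes. The 15 largest toward H1299 were GAGE12G, UCHL1, IGF2BP1, KIAA1549L, GAGE13, MAGEA4, GAGE1, GAGE2A, ANTXR1, GAGE10, PLBD1, NTSR1, HOXB2, FGF5 and KCNMA1, between -11.77 and -9.15. UCHL1, a deubiquitinase of neurons and neuroendocrine cells, was at 4.96, 5.87, 6.25 and 4.69 in the H1975 arrays and 15.70, 16.64, 16.89, 15.86 and 15.72 in the H1299 arrays. IGF2BP1, an oncofetal mRNA-binding protein, was at 3.63 ± 0.33 against 14.11 ± 0.16, a difference of -10.48 ± 0.22 (adjusted p = 1.82e-13). In all 30 of these genes the lower line was at or under the highest background probe set, so they describe a gene that is on in 1 line and near background in the other. The 5 GAGE genes are near-identical copies whose probes may share signal, so they do not count as 5 separate observations.

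**Figure D1:**
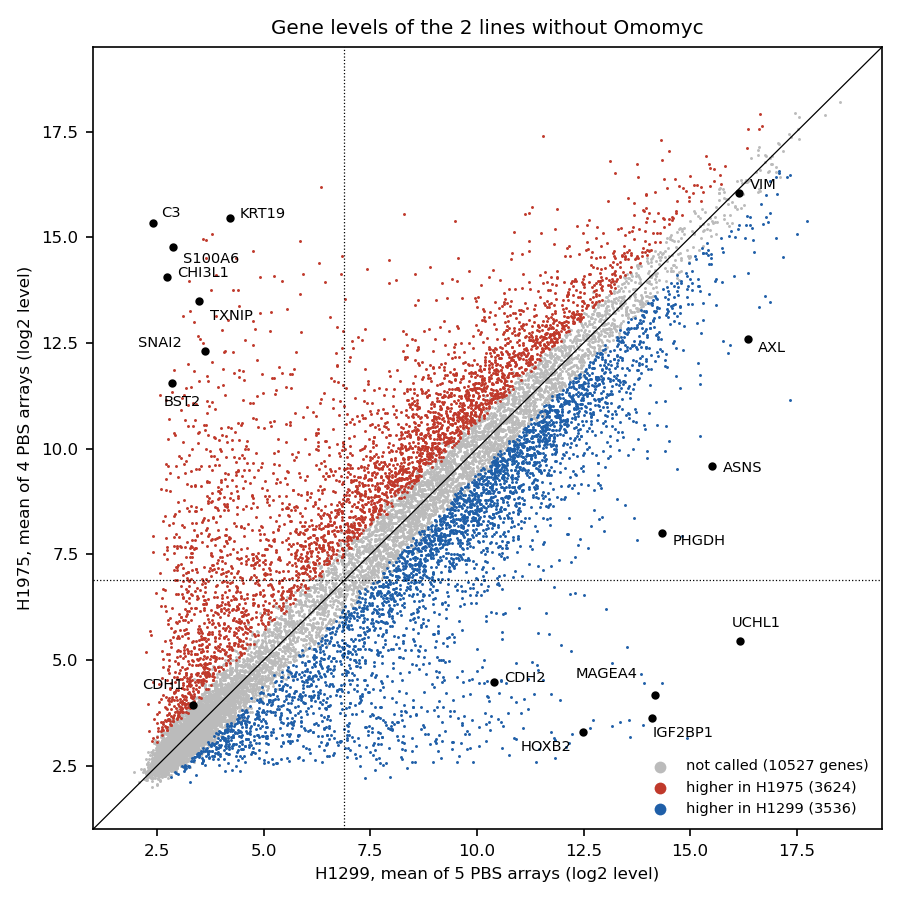
Mean log2 level of each of the 17687 genes in the 5 H1299 PBS arrays (x axis) and the 4 H1975 PBS arrays (y axis); red and blue points are the 3624 and 3536 genes called higher in H1975 and H1299, grey points are not called, and dotted lines mark the highest background probe set (6.89). VIM lies on the diagonal at about 16 in both lines and CDH1 lies under the background line in both, while C3, KRT19, UCHL1 and MAGEA4 are near background in 1 line only.

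The lines differed in which epithelial and mesenchymal genes were on, and E-cadherin was in the background range in both. Of 51 measured epithelial genes 18 were higher in H1975 and 5 in H1299 (35.3% and 9.8%, beside 20.5% and 20.0% of all genes), and 28 were not called. The mean of 34 of the 51 was above background in neither line, so the counts and median include many genes in the background range. Their median difference was 0.28. Of 42 measured mesenchymal genes 18 were higher in H1975 and 13 in H1299 (42.9% and 31.0%), with a median of 0.34. More called genes of both lists were on the H1975 side. The mesenchymal median was 0.17, 0.12 and 0.53 within the 3 runs, and the epithelial median 0.55, 0.27 and 0.33.

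Promoter sequence is shown first for DSP and OCLN, junction genes with large differences in opposite directions, because ZEB and SNAI proteins bind E-box motifs in epithelial promoters. The motif searched was CAGGTG on either strand (CACCTG). Of 31 epithelial list members that have a promoter entry, 15 held it in the 250 bases before the gene start (48.4%), as did 17.5% of all 27305 promoters. Matches were held by 5 of 12 members higher in H1975, 2 of 3 higher in H1299 and 8 of 16 not called. The sequences are from RefSeq on GRCh38.p14, 5′ to 3′ on the gene's strand, with the motif in capitals. DSP lies on chr6:7541421-7541670, plus strand, and OCLN on chr5:69492297-69492546, plus strand.
DSP: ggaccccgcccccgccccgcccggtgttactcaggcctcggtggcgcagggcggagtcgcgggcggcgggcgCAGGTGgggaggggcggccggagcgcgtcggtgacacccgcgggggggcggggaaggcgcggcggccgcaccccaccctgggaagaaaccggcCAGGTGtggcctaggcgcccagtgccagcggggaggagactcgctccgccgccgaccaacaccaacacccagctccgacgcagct
OCLN: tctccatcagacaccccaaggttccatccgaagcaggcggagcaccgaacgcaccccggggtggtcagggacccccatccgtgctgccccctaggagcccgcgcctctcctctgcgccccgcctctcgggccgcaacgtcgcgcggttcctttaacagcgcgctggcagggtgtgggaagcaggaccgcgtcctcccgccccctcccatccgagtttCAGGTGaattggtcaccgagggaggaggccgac
DSP held 2 such motifs and OCLN 1. A match of letters says nothing of binding in these cells.

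Among junction genes, CDH1, the E-cadherin gene, was at 4.43, 3.81, 3.82 and 3.66 in the H1975 arrays and 3.46, 3.67, 3.39, 3.15 and 2.98 in the H1299 arrays. All 9 values lay under the highest background probe set, and the difference was not called (95% interval, unadjusted for the number of genes, of 0.10 to 1.10, adjusted p = 0.0524), though it was in the fit blocked on run (0.54, adjusted p = 0.0281). A549 was at 9.78 ± 0.56 (n = 4). EPCAM, an epithelial adhesion molecule, was at 9.001, 9.29, 9.14 and 8.54 in the H1975 arrays and 4.82, 3.94, 3.59, 3.17 and 4.07 in the H1299 arrays. Every H1975 array was above every H1299 array, by 5.07 ± 0.30 on average (adjusted p = 2.73e-09). CLDN4, a tight junction claudin, was at 11.45, 11.28, 10.73 and 10.59 in the H1975 arrays and 3.92, 4.12, 4.41, 3.32 and 2.85 in the H1299 arrays, again without overlap (7.29 ± 0.32, adjusted p = 9.01e-11). MARVELD2, the tricellulin gene of corners between cells, was at 7.53 ± 0.44 against 3.31 ± 0.23 (4.22 ± 0.24). OCLN, the tight junction protein occludin, went the other way at 7.16, 7.50, 7.86 and 6.74 in the H1975 arrays and 12.07, 12.53, 12.10, 12.31 and 12.05 in the H1299 arrays. Its 5 H1299 arrays lay within a narrow band far above H1975 (-4.90 ± 0.25, adjusted p = 4.29e-10). CLDN1 was high in both lines (9.96 ± 0.42 against 10.42 ± 0.23) and not called.

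Desmosome genes were split as well: 5 of 8 were higher in H1975 and 2 in H1299. These are 62.5% and 25.0%, beside 20.5% and 20.0% of all genes. DSP, desmoplakin, which ties desmosomes to keratin filaments, was at 13.29, 13.46, 13.60 and 13.81 in the H1975 arrays and 6.58, 7.09, 6.88, 6.68 and 7.32 in the H1299 arrays. The groups were far apart (6.63 ± 0.22, adjusted p = 6.26e-12). JUP, plakoglobin, was also higher in H1975 (11.40 ± 0.19 against 8.44 ± 0.57, 2.97 ± 0.28). DSC2, a desmosomal cadherin, was at 2.25, 2.11, 2.92 and 3.44 in the H1975 arrays and 7.89, 8.16, 7.36, 7.52 and 7.55 in the H1299 arrays, near background in H1975 and above it in H1299 (-5.02 ± 0.29, adjusted p = 1.92e-09). PKP2, a plakophilin, was likewise higher in H1299 (6.04 ± 0.67 against 10.22 ± 0.38, -4.18 ± 0.31). DSG2, a desmoglein, was above background in both lines and higher in H1975 (12.21 ± 0.24 against 11.18 ± 0.24, 1.02 ± 0.22).

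Most regulators that hold the epithelial state were in the background range in both lines. ESRP1, a splicing factor of epithelial cells, was at 2.99 ± 0.24 against 3.35 ± 0.37, and GRHL2, a grainyhead transcription factor, at 3.77 ± 0.13 against 3.39 ± 0.36. All values of both genes were in the background range, and 6 of 8 regulators were not called (25.0% called, beside 40.5% of all genes). KLF5, a transcription factor of proliferating epithelium, was the 1 regulator above background, at 10.26, 10.82, 10.90 and 10.07 in the H1975 arrays and 7.05, 8.26, 8.43, 7.88 and 7.74 in the H1299 arrays. The lowest H1975 value was above the highest of H1299 (2.64 ± 0.29, adjusted p = 3.12e-06). Under Omomyc this difference was -0.60 (adjusted p = 0.0763), and the change of the difference between treatments was 3.24 ± 0.40 (adjusted p = 1.33e-05). SPINT2, an inhibitor of membrane proteases, was called but near or under background in both lines (6.33 ± 0.66 against 4.10 ± 0.53).

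Keratins, the intermediate filaments of epithelium, had 6 of 13 measured genes higher in H1975 (46.2%, beside 20.5% of all genes) and 0 in H1299 by limma, also 0 at an unadjusted p under 0.05. Of the 13, 6 had a mean above background in H1975, 3 in H1299 and 7 in neither line. KRT8 and KRT18, the pair of simple epithelia, were at 16.73 ± 0.08 against 13.75 ± 0.32 and 15.11 ± 0.42 against 12.95 ± 0.38, well above background in both lines. KRT7 was at 13.62, 13.74, 13.38 and 12.78 in the H1975 arrays and 4.05, 5.98, 4.65, 3.86 and 3.53 in the H1299 arrays. KRT19 was at 15.45 ± 0.35 against 4.20 ± 1.01, a difference of 11.25 ± 0.42 (adjusted p = 1.67e-11), so H1975 had both and H1299 neither above background. NKX2-1, the lineage transcription factor of alveolar epithelium, was at 8.31, 7.55, 7.51 and 6.79 in the H1975 arrays and 2.57, 3.04, 3.59, 2.86 and 2.48 in the H1299 arrays. It was above background on 3 of 4 H1975 arrays and on no H1299 array (4.63 ± 0.31, adjusted p = 1.05e-08). SFTPB and NAPSA, alveolar products used as markers of lung adenocarcinoma epithelium, were in the background range in both lines (3.96 against 4.29 and 3.54 against 2.93).

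Mesenchymal transcription factors divided into 2 sets. SNAI2 and SNAI1, zinc finger repressors of epithelial genes, were H1975 genes. SNAI2 was at 12.77, 12.33, 12.07 and 12.05 in the H1975 arrays and 3.13, 3.49, 3.29, 4.19 and 4.01 in the H1299 arrays, and SNAI1 at 10.57 ± 0.12 against 3.65 ± 0.33. The differences were 8.68 ± 0.27 (adjusted p = 2.4e-12) and 6.92 ± 0.22 (adjusted p = 3.78e-12), with every H1299 array near background. ZEB2, TWIST1, TWIST2, PRRX1 and TCF4 were H1299 genes. TCF4 was at 3.64, 3.50, 3.44 and 3.33 in the H1975 arrays and 10.54, 9.83, 10.76, 10.10 and 9.79 in the H1299 arrays, and PRRX1 at 3.32 ± 0.27 against 9.25 ± 0.32. Neither gene overlapped between lines (-6.73 ± 0.24 and -5.93 ± 0.23). ZEB2 was at 8.22 ± 0.47 against 10.96 ± 0.32 and so above background in both lines, but higher in H1299 (-2.74 ± 0.26, adjusted p = 5.43e-07). ZEB1 was at 12.57, 12.67, 13.41 and 12.65 in the H1975 arrays and 13.73, 13.40, 13.14, 13.76 and 13.53 in the H1299 arrays. It was high in both lines and the groups overlapped, with H1975 replicate 3 among the H1299 values, though the mean difference was called (-0.69 ± 0.24, adjusted p = 0.031). That call was lost on leaving out any 1 of 6 arrays, and within run 2.

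In the cytoskeleton, VIM, the vimentin gene that marks mesenchymal cells, was at 15.93, 16.17, 16.26 and 15.83 in the H1975 arrays and 16.20, 16.15, 16.57, 15.94 and 15.87 in the H1299 arrays. The groups overlapped and the difference was -0.10 ± 0.22 (adjusted p = 0.781), with a 95% interval, unadjusted for the number of genes, of -0.56 to 0.37. CALD1, NEXN and TAGLN, which encode actin-binding proteins, MSN, which ties actin to the membrane, and S100A4, a calcium-binding protein, were higher in H1975. NEXN was at 10.21 ± 0.53 against 4.26 ± 0.13 and CALD1 at 12.16 ± 0.48 against 7.02 ± 0.33 (5.95 ± 0.25 and 5.14 ± 0.26). TPM2, a tropomyosin, was higher in H1299 at 8.05 ± 0.87 against 12.98 ± 0.50 (-4.92 ± 0.37).

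Of 10 cadherins and receptors 3 were higher in each line. CDH2, N-cadherin, was at 4.58, 4.48, 4.22 and 4.63 in the H1975 arrays and 10.45, 10.15, 10.34, 10.69 and 10.34 in the H1299 arrays. It was under background in H1975 and above it on every H1299 array (-5.91 ± 0.20, adjusted p = 7.85e-12). CDH11, another mesenchymal cadherin, was the reverse at 10.66 ± 0.38 against 5.23 ± 0.27 (5.43 ± 0.24). AXL, a receptor tyrosine kinase tied to the mesenchymal state, was high in both lines and higher in H1299, at 12.66, 12.61, 12.72 and 12.36 in the H1975 arrays and 16.44, 16.12, 16.12, 16.50 and 16.57 in the H1299 arrays (-3.76 ± 0.21, adjusted p = 1.07e-09). NT5E, the ectonucleotidase CD73, followed the same order (13.46 ± 0.27 against 16.88 ± 0.24, -3.42 ± 0.22). CD44 and EMP3 were high in both lines and not called (14.68 against 14.40 and 15.71 against 16.05).

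Secreted and matrix genes were mostly on the H1975 side, 8 of 14 against 3 (57.1% and 21.4%, beside 20.5% and 20.0% of all genes). TGFBI, a matrix protein induced by TGF-beta, was at 15.16, 14.79, 15.12 and 14.68 in the H1975 arrays and 3.78, 4.13, 3.46, 3.18 and 3.68 in the H1299 arrays. LOX, the collagen cross-linking lysyl oxidase, was at 13.26 ± 0.52 against 3.26 ± 0.31, and SPARC, a collagen-binding glycoprotein, at 14.68 ± 0.46 against 4.74 ± 0.51. The 3 differences were 11.29 ± 0.24, 10.00 ± 0.27 and 9.94 ± 0.30, all with H1299 near background. FN1, fibronectin, was at 12.78 ± 0.16 against 6.86 ± 0.33 (5.92 ± 0.22). FBN1, WNT5B and CCN1 were the 3 higher in H1299 (-3.98, -3.89 and -2.54). CCN1, a target of YAP, was strong in both lines at 11.51 ± 0.29 against 14.05 ± 0.49.

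**Figure D2:**
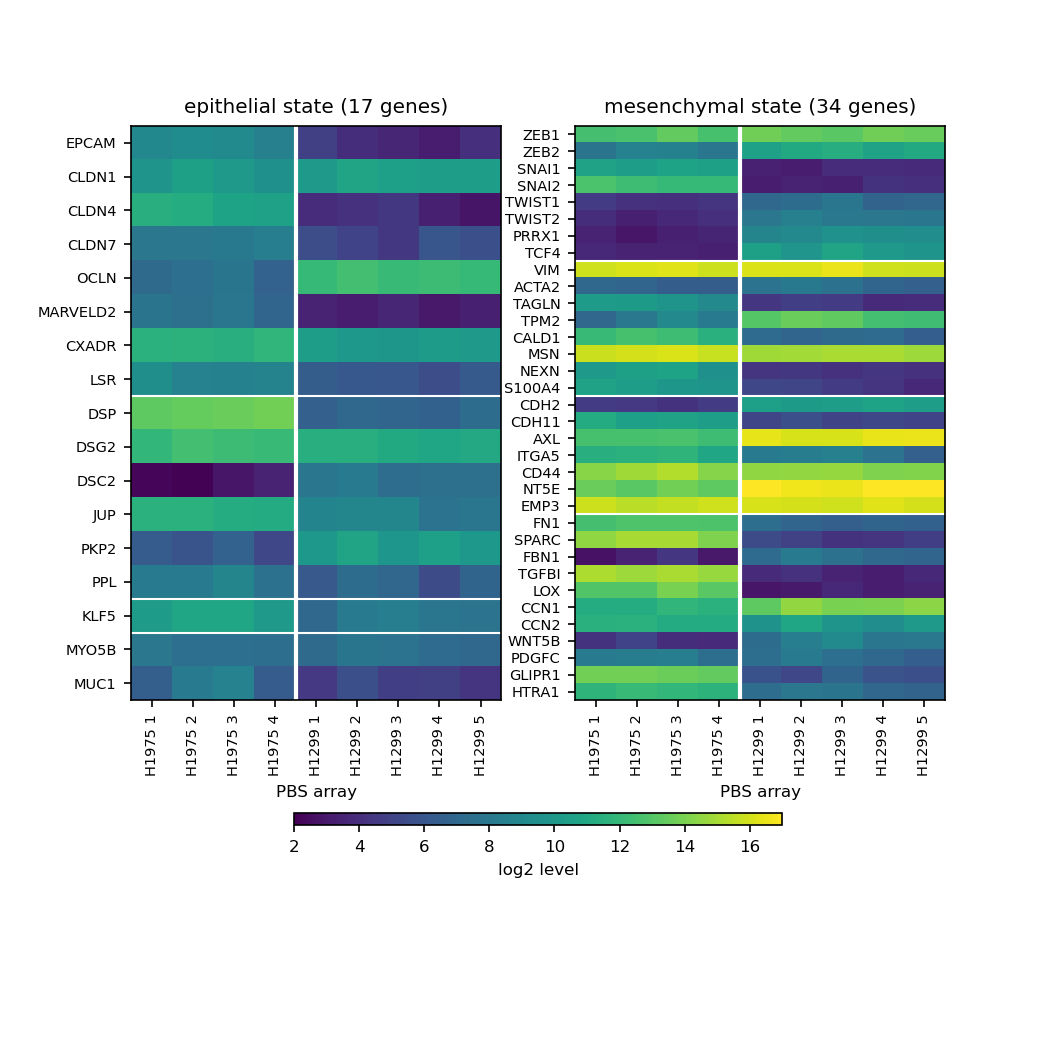
Log2 level (colour, 2 to 17) on each PBS array for the 17 epithelial and 34 mesenchymal genes with a mean above 6.89 in at least 1 line; white lines separate the lines and the roles (junction, desmosome, regulator and trafficking at left; transcription factor, cytoskeleton, receptor and matrix at right). EPCAM, CLDN4, DSP, SNAI1, SNAI2, SPARC, TGFBI and LOX are high on all 4 H1975 arrays, OCLN, DSC2, PKP2, CDH2, TCF4 and PRRX1 on all 5 H1299 arrays, and VIM on all 9.

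Fibroblast RNA was checked because matrix genes are also fibroblast genes. Of 20 measured markers of leukocytes, endothelium, fibroblasts and erythroid cells, 3 were above the highest background probe set in H1975 and 1 in H1299. They were CD68, a lysosomal protein high in both lines (12.86 against 13.34), and the type I collagen chains COL1A1 and COL1A2, above background in H1975 only. Of the 20, 2 were called higher in H1975 and 1 in H1299 (10.0% and 5.0%, beside 20.5% and 20.0% of all genes). With the run as a block the counts were 3 and 3. The mean level of the 20 markers was 4.14 to 4.47 on H1975 arrays and 3.94 to 4.37 on H1299 arrays. Of the 6 measured fibroblast markers, COL1A1 and COL1A2 were thus higher in H1975. The other 4, DCN, LUM, PDGFRA and THY1, were in the background range in both lines, as were PTPRC, PECAM1 and HBB. The source of the collagen signal was not tested.

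ATF4 targets were higher in H1299, the most one-sided of the 9 main lists toward that line by its share of members. Of 49 measured genes 34 were higher in H1299 (69.4%, beside 20.0% of all genes) and 3 in H1975 (6.12%), with a median of -1.48. Per array the mean level of the list was 9.64 to 10.06 in H1975 and 11.40 to 11.83 in H1299. The list median was -1.70, -1.61 and -1.67 within the 3 runs.

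Promoters of ATF4 targets can hold a composite site known as the C/EBP-ATF response element. Its core, searched as TGATGNAA on either strand, was found in the 250 bases before the start of 6 of 39 members with an entry (15.4%), and in 3.19% of all 27305 promoters. The motif was chosen after the values were seen. The 2 target genes with the largest differences among those that hold it are shown. ASNS lies on chr7:97872409-97872658, minus strand, and CHAC1 on chr15:40953221-40953470, plus strand, with capitals for the core, which in CHAC1 reads on the opposite strand (RefSeq, GRCh38.p14).
ASNS: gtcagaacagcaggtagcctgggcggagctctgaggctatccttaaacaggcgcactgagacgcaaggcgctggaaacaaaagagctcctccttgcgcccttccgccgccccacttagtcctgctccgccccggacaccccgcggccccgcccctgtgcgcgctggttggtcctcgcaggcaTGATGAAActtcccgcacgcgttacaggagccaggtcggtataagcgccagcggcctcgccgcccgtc
CHAC1: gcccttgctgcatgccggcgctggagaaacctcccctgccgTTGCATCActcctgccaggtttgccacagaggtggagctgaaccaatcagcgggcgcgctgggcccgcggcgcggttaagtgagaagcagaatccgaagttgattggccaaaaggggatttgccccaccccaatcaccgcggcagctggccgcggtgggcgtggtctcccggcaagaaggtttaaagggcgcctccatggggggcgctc
Both genes hold 1 such core. It was held by 5 of 29 members higher in H1299, 0 of 2 higher in H1975 and 1 of 8 not called. No match in the other promoters says only that these letters are not in this window.

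ATF4 itself was at 12.15, 12.35, 12.36 and 12.04 in the H1975 arrays and 13.92, 14.28, 14.22, 14.02 and 13.99 in the H1299 arrays. The lowest H1299 array lay above the highest H1975 array (-1.86 ± 0.20, adjusted p = 1.94e-06). Of 13 transcription and feedback regulators 10 were higher in H1299 (76.9%, beside 20.0% of all genes). DDIT3, the stress factor CHOP, was at 6.11, 6.09, 6.04 and 6.13 in the H1975 arrays and 9.11, 9.52, 9.54, 8.44 and 8.90 in the H1299 arrays. It was in the background range on all H1975 arrays (-3.01 ± 0.25, adjusted p = 1.04e-07). CHAC1, which breaks down glutathione and is a sensitive ATF4 target, was at 5.60, 6.51, 4.20 and 4.91 in the H1975 arrays and 13.96, 13.73, 13.41, 13.20 and 13.29 in the H1299 arrays. It was under 6.89 on all H1975 arrays and well above it on all H1299 arrays (-8.22 ± 0.37, adjusted p = 1.36e-10). CEBPG, a dimer partner of ATF4, was at 8.37 ± 0.42 against 13.68 ± 0.15 (-5.31 ± 0.23), and SESN2, a leucine sensor that restrains mTORC1, at 6.64 ± 0.46 against 10.16 ± 0.27 (-3.52 ± 0.25).

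Amino acid enzymes were higher in H1299 in 7 of 11 cases (63.6%, beside 20.0% of all genes). By limma 0 of these enzymes were higher in H1975, also 0 at an unadjusted p under 0.05. ASNS, asparagine synthetase, was at 9.38, 9.89, 10.13 and 8.99 in the H1975 arrays and 14.97, 15.98, 15.88, 15.27 and 15.46 in the H1299 arrays. PHGDH, the first enzyme of serine synthesis, was at 8.15, 8.42, 7.79 and 7.69 in the H1975 arrays and 13.79, 14.70, 15.02, 14.25 and 13.94 in the H1299 arrays. Both were above background in both lines and did not overlap between them (-5.92 ± 0.28, adjusted p = 2.71e-10, and -6.33 ± 0.28, adjusted p = 1e-10). PSAT1, the next enzyme of serine synthesis, was at 13.62 ± 0.16 against 16.77 ± 0.15 (-3.15 ± 0.20), and MTHFD2, the mitochondrial folate enzyme, at 12.55 ± 0.15 against 15.77 ± 0.18 (-3.22 ± 0.20). PSPH, the last enzyme of serine synthesis, did not follow: it was at 8.06 ± 0.16 against 8.19 ± 0.51 and not called (adjusted p = 0.757).

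Among amino acid transporters, SLC7A11, the cystine importer, was at 7.38, 7.38, 8.06 and 6.97 in the H1975 arrays and 12.40, 12.06, 11.82, 12.37 and 12.89 in the H1299 arrays. Its H1299 values were well above those of H1975 (-4.86 ± 0.27, adjusted p = 1.46e-09). SLC7A1, a cationic amino acid transporter, differed by -3.67 ± 0.24, and SLC7A5, the leucine transporter LAT1, by -1.92 ± 0.20. Of the tRNA synthetase and export genes 10 of 11 were higher in H1299 (90.9%, beside 20.0% of all genes), with a median of -1.44. YARS1, the tyrosyl-tRNA synthetase, was at 11.78, 11.73, 11.64 and 11.73 in the H1975 arrays and 14.38, 14.77, 14.76, 14.72 and 14.76 in the H1299 arrays. The 4 H1975 values lay close together, far under those of H1299 (-2.96 ± 0.19, adjusted p = 8.73e-09). TARS1 was the 1 synthetase with a higher mean in H1975, and was not called (14.14 ± 0.41 against 13.53 ± 0.33, adjusted p = 0.071), though it was in the fit blocked on run (0.55, adjusted p = 0.0191).

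The 3 members higher in H1975 were SLC6A9, NUPR1 and STC2. SLC6A9, the glycine transporter GlyT1, was at 11.50, 11.66, 12.09 and 11.10 in the H1975 arrays and 6.26, 6.93, 6.82, 7.25 and 5.96 in the H1299 arrays. NUPR1, a stress-induced nuclear protein, was at 10.96 ± 0.53 against 6.63 ± 0.83, and STC2, the secreted glycoprotein stanniocalcin 2, at 11.59 ± 0.29 against 8.91 ± 0.31. Their differences were 4.95 ± 0.29 (adjusted p = 2.42e-09), 4.33 ± 0.39 (adjusted p = 2.69e-07) and 2.68 ± 0.23 (adjusted p = 1.99e-07), without overlap between the lines.

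Endoplasmic reticulum chaperones and stress sensors, the list of the unfolded protein response, went the opposite way. Of 21 measured genes 14 were higher in H1975 (66.7%, beside 20.5% of all genes) and 1 in H1299 (4.76%, beside 20.0%), with a median of 1.10. EIF2AK3, which encodes PERK, a kinase upstream of ATF4, was at 9.94, 10.24, 10.97 and 10.00 in the H1975 arrays and 6.96, 7.37, 7.56, 7.32 and 6.35 in the H1299 arrays. It was higher on every H1975 array (3.18 ± 0.29, adjusted p = 3.47e-07). SEL1L, of the machinery that degrades misfolded proteins, was at 14.87 ± 0.31 against 13.04 ± 0.15 (1.83 ± 0.21), XBP1, the transcription factor of the IRE1 arm, at 12.80 ± 0.20 against 10.69 ± 0.46 (2.10 ± 0.25), and CALR, a chaperone gene that is also in the antigen presentation list, at 16.92 ± 0.16 against 15.36 ± 0.22 (1.56 ± 0.21). HSPA5, the central chaperone BiP, was high in both lines and not called (15.40 ± 0.17 against 14.997 ± 0.19, adjusted p = 0.143). ERN1, which encodes the sensor IRE1, was the 1 gene higher in H1299 (9.51 ± 0.24 against 10.16 ± 0.14, -0.64 ± 0.20, adjusted p = 0.0198). That call was lost without H1975 replicate 1 (adjusted p = 0.0665).

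**Figure D3:**
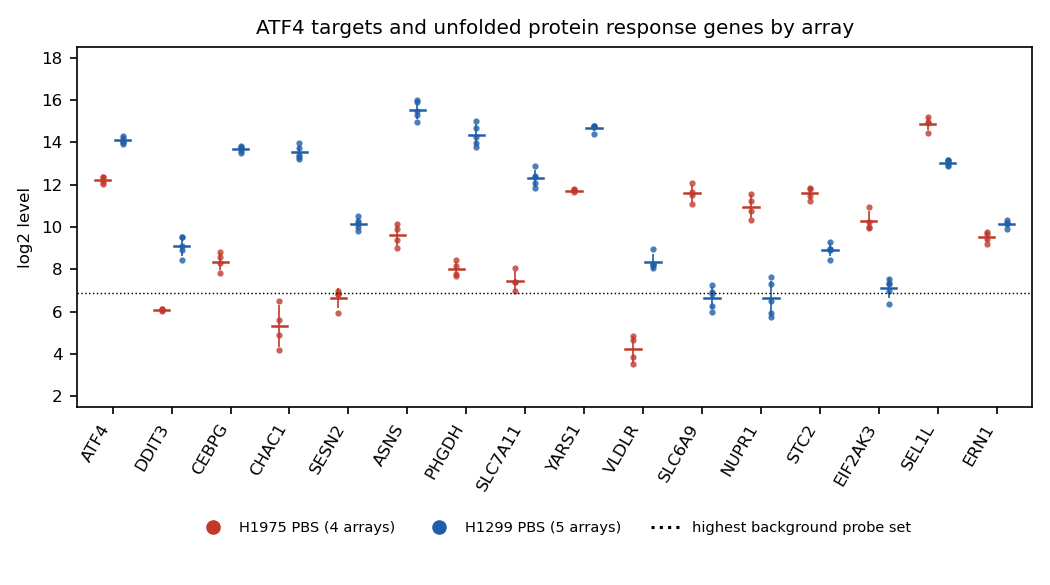
Log2 level of 13 ATF4 targets (ATF4 to STC2) and 3 unfolded protein response genes (EIF2AK3, SEL1L and ERN1) on each PBS array, red for the 4 H1975 and blue for the 5 H1299 arrays; horizontal bars are group means, vertical lines SD, and the dotted line is the highest background probe set (6.89). Every target from ATF4 to VLDLR is higher in H1299, and SLC6A9, NUPR1, STC2, EIF2AK3 and SEL1L are higher in H1975.

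Of the 9 main lists, ATF4 targets and DNA replication had a median of the opposite sign in the Omomyc arrays. For DNA replication genes both medians were near 0: -0.04 under PBS (0.12, -0.17 and -0.14 within the 3 runs) and 0.13 under Omomyc. The median of ATF4 targets under Omomyc was 0.50, with 23 of 49 members higher in H1975 and 12 in H1299. Of all 17687 genes 3903 and 3739 were called in these directions under Omomyc. Of ATF4 targets 39 of 49 passed the test of the change in line difference between treatments, beside 5.11% of all genes. Of DNA replication genes 3 of 42 passed that test. With the run as a block 2063 genes of all 17687 passed that test in place of 903. DDIT3 was at 10.70 ± 0.38 in H1975 and 7.25 ± 0.37 in H1299 under Omomyc, a difference of 3.45 (adjusted p = 5.22e-09), and its change between treatments was -6.46 ± 0.34 (adjusted p = 5.15e-11). SLC7A11 turned to 0.99 (adjusted p = 0.0031), with levels of 9.45 ± 0.10 in H1975 and 8.47 ± 0.52 in H1299. ASNS and PHGDH kept the sign with smaller differences (-1.37 and -1.45), and their changes of -4.54 ± 0.40 and -4.88 ± 0.39 passed the test (adjusted p = 9.05e-08 and adjusted p = 2.43e-08).

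The cell cycle lists differed in their counts. Mitotic genes were mostly higher in H1299: of 45 measured genes 24 were higher there (53.3%, beside 20.0% of all genes) and 4 in H1975 (8.89%), with a median of -0.92. DNA replication genes went both ways, 8 of 42 higher in H1975 and 14 in H1299, with a median of -0.04. These are 19.0% and 33.3%, beside 20.5% and 20.0% of all genes, so the H1975 share was near that of all genes. G1 control genes were 3 of 18 against 9 (16.7% and 50.0%). The 4 H1975 arrays had mean levels of mitotic genes of 9.82 to 10.43 and the H1299 arrays 10.76 to 11.43. Proliferation rates were not measured here.

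In G1 control, CDKN2A, the locus of the inhibitors p16 and ARF, was at 11.36, 12.02, 11.93 and 11.61 in the H1975 arrays and 14.62, 15.44, 15.79, 15.05 and 15.21 in the H1299 arrays. It was strong in both lines and higher in H1299 (-3.49 ± 0.26, adjusted p = 3.52e-08), while A549 was at 3.33 ± 0.21 (n = 4). RB1, the retinoblastoma protein that p16 acts through, was at 8.36, 9.29, 9.13 and 9.0 in the H1975 arrays and 12.52, 12.29, 12.32, 12.09 and 12.60 in the H1299 arrays. It too was higher in H1299 without overlap (-3.42 ± 0.23, adjusted p = 1.4e-08). E2F5, a repressive E2F factor, was at 7.72 ± 0.52 against 12.38 ± 0.23 (-4.66 ± 0.26). CCND2, cyclin D2, was at 3.06, 5.56, 5.76 and 5.50 in the H1975 arrays and 7.67, 9.86, 9.23, 10.05 and 9.86 in the H1299 arrays. In each line replicate 1 was the lowest, and every H1299 array was above every H1975 array (-4.36 ± 0.56, adjusted p = 1.3e-05).

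CCND1, cyclin D1, was strong in both lines at 13.44 ± 0.10 against 14.11 ± 0.15, and CDK6, its kinase partner, was at 7.45 ± 0.62 against 10.56 ± 0.12. Both were higher in H1299 (-0.67 ± 0.19, adjusted p = 0.0116, and -3.11 ± 0.27, adjusted p = 2.03e-07). CDK4, the other partner, was at 13.56 against 13.88 and not called. CDKN1A, the kinase inhibitor p21, was at 8.84 ± 0.53 against 9.82 ± 0.45 (-0.98 ± 0.29, adjusted p = 0.0143). The 3 genes higher in H1975 were CCND3, RBL1 and CDKN1C, with differences of 0.65, 1.00 and 1.12. CDKN1C was in the background range. The call of CCND3 was lost on leaving out any 1 of 7 arrays, and that of CDKN1A without H1975 replicate 3 (adjusted p = 0.0515) or 4 (adjusted p = 0.0522). The count of 3 was 1 within run 3, 0 within run 1 and 1 at an adjusted p under 0.01 or without moderation.

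Replication genes went both ways among proteins that act together. PCNA, the sliding clamp, was at 11.84, 11.55, 11.47 and 11.75 in the H1975 arrays and 10.04, 9.91, 9.89, 8.93 and 9.32 in the H1299 arrays, and FEN1, the flap nuclease that acts with it, at 11.07 ± 0.40 against 8.99 ± 0.31. Both were higher in H1975 (2.04 ± 0.25, adjusted p = 1.05e-05, and 2.08 ± 0.25, adjusted p = 6.1e-06). RFC3, a subunit of the loader of that clamp, was at 8.36, 8.54, 8.18 and 8.12 in the H1975 arrays and 11.27, 11.02, 10.90, 11.11 and 10.92 in the H1299 arrays, and RFC4 at 11.26 ± 0.19 against 12.71 ± 0.14. These were higher in H1299 (-2.74 ± 0.20, adjusted p = 3.02e-08, and -1.44 ± 0.20, adjusted p = 2.84e-05). GINS3, of the replicative helicase, was at 10.84 ± 0.52 against 7.85 ± 0.55 and higher in H1975 (2.99 ± 0.31), and PRIM1, the primase, at 8.83 ± 0.41 against 10.96 ± 0.46 and higher in H1299 (-2.13 ± 0.28). TYMS, thymidylate synthase, differed by -1.50 ± 0.21. The count higher in H1975 was 5 in place of 8 within run 1 and within run 3.

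Among mitotic genes, CKAP2, a spindle protein, was at 8.81, 9.51, 9.60 and 8.62 in the H1975 arrays and 12.38, 12.25, 12.35, 12.54 and 11.84 in the H1299 arrays. KIF2C, a kinesin that takes microtubules apart, was at 7.79 ± 0.79 against 10.71 ± 0.41, and CDCA8, the borealin of the chromosomal passenger complex, at 9.12 ± 0.11 against 11.01 ± 0.28. All 3 were higher in H1299 (-3.14 ± 0.26, -2.92 ± 0.34 and -1.88 ± 0.21). The checkpoint kinase BUB1 (-2.06 ± 0.35) and the anaphase activator CDC20 (-1.90 ± 0.28) followed. The 4 exceptions were CDC25B, a phosphatase that activates CDK1, at 12.62 ± 0.24 against 10.74 ± 0.46 (1.88 ± 0.26), the transcription factor gene MYBL2 (1.78 ± 0.34), ANLN, which encodes the septin-binding anillin (0.83 ± 0.21), and MKI67. MKI67, the Ki-67 proliferation antigen, was at 12.40, 13.31, 14.12 and 12.55 in the H1975 arrays and 12.35, 12.20, 12.40, 12.44 and 11.92 in the H1299 arrays. H1975 replicate 1 lay within the H1299 range and replicate 3 was the highest of all. The difference of 0.83 ± 0.31 (adjusted p = 0.0476) was 0.78, adjusted p = 0.027 with the run as a block and lost its call with the replicate number as a block (adjusted p = 0.0514) and on leaving out any 1 of 7 arrays. Without H1975 replicate 3 it was 0.49 (adjusted p = 0.171), and it was 0.05 within run 1, 1.41 within run 2 and 0.37 within run 3.

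Antigen presentation and interferon-stimulated genes had the largest shares of members higher in H1975 among the 9 main lists. Of 34 measured antigen presentation genes 25 were higher in H1975 (73.5%, beside 20.5% of all genes) and 3 in H1299 (8.82%), with a median of 1.73. Of 47 interferon-stimulated genes 28 were higher in H1975 and 3 in H1299 (59.6% and 6.38%), with a median of 1.84. Of 40 cytokine and NF-kB genes 18 were higher in H1975 (45.0%) and 6 in H1299, with a median of 0.46. The medians of antigen presentation were 1.78, 1.30 and 1.64 within the 3 runs, and those of the interferon list 1.58, 1.70 and 1.72.

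Promoters of interferon-stimulated genes can hold the interferon-stimulated response element, at which interferon-activated factors bind. Its core was searched, on either strand, as GAAA, then any 2 bases, then GAAA. It lay in the 250 bases before the start of 20 of 36 list members with an entry (55.6%), and of 3.07% of all 27305 promoters. The motif was chosen after the values were seen. Matches were held by 12 of 21 members higher in H1975, 1 of 3 higher in H1299 and 7 of 12 not called, so members with and without a call both held it. The effector genes BST2, IFIT1 and IFITM1, which were higher in H1975, and the sensor IFIH1, which was higher in H1299, are shown with the core in capitals. BST2 lies on chr19:17405631-17405880, minus strand, IFIT1 on chr10:89392373-89392622, plus strand, IFITM1 on chr11:313790-314039, plus strand, and IFIH1 on chr2:162318685-162318934, minus strand (RefSeq, GRCh38.p14).
BST2: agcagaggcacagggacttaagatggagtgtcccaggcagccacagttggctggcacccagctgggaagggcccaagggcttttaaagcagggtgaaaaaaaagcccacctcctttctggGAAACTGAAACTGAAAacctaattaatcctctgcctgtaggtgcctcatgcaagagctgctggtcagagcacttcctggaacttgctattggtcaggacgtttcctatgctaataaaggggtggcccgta
IFIT1: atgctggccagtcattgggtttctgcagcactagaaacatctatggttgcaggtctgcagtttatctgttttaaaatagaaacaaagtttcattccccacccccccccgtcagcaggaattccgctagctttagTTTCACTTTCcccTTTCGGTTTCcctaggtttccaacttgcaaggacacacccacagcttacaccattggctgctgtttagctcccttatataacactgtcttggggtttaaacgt
IFITM1: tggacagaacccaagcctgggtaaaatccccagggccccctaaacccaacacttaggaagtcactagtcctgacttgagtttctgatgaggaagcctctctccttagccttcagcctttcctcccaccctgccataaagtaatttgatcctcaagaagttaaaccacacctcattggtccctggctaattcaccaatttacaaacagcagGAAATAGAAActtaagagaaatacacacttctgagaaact
IFIH1: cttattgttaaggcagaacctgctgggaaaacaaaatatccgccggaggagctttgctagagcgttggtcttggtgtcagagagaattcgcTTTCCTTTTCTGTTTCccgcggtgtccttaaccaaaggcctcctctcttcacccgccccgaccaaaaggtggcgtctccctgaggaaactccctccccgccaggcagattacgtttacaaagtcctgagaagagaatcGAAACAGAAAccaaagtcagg
In BST2, and at 1 place in IFIH1, neighbouring cores overlap and share letters.

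Effectors led the interferon list: 23 of 36 were higher in H1975 and 1 in H1299. These are 63.9% and 2.78%, beside 20.5% and 20.0% of all genes. BST2, tetherin, which holds virus particles at the cell surface, was at 12.33, 11.67, 10.79 and 11.40 in the H1975 arrays and 2.84, 3.41, 2.70, 2.61 and 2.73 in the H1299 arrays. OASL, an OAS-like antiviral protein, was at 10.55, 10.43, 9.95 and 9.90 in the H1975 arrays and 4.17, 4.94, 4.51, 4.75 and 3.71 in the H1299 arrays, and GBP2, a guanylate-binding protein, at 12.83 ± 0.09 against 7.37 ± 0.22. Every H1975 array exceeded every H1299 array for all 3 (8.69 ± 0.29, 5.79 ± 0.27 and 5.47 ± 0.20). IFIT1, an RNA-binding effector, was at 10.74 ± 0.28 against 5.92 ± 0.64 (4.82 ± 0.30). IFITM1 and IFITM3, which block virus entry at membranes, were at 12.79 ± 0.21 against 8.75 ± 0.29 and 17.30 ± 0.13 against 14.31 ± 0.32, and their sequences are alike, so probes may share signal. Other known effectors stayed in the background range in both lines, such as IFI44L (3.72 against 3.64), CMPK2 (3.71 against 3.62) and TRIM22 (4.51 against 4.50). IFI16, a DNA sensor outside the list, was at 14.996, 15.24, 15.41 and 14.65 in the H1975 arrays and 3.37, 4.22, 4.02, 3.64 and 3.68 in the H1299 arrays (11.29 ± 0.24).

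Sensor and signalling genes, which include interferon receptors and IRF factors, were mixed. Of 11 measured, 5 were higher in H1975 and 2 in H1299 (45.5% and 18.2%, beside 20.5% and 20.0% of all genes). TLR3, the endosomal receptor for double-stranded RNA, was at 3.29, 4.45, 4.16 and 3.64 in the H1975 arrays and 7.52, 7.63, 8.29, 8.09 and 7.13 in the H1299 arrays. IFIH1, the cytosolic RNA sensor MDA5, was at 7.39 ± 0.62 against 9.64 ± 0.27, so both were H1299 genes (-3.85 ± 0.29, adjusted p = 4.9e-08, and -2.25 ± 0.28, adjusted p = 1.07e-05). RIGI, the other cytosolic RNA sensor, and STING1, the adaptor of DNA sensing, were H1975 genes at 9.12 ± 0.52 against 7.17 ± 0.34 and 11.38 ± 0.25 against 7.59 ± 0.40 (1.94 ± 0.27 and 3.79 ± 0.24). CGAS was at 7.81 ± 0.30 against 8.45 ± 0.41 and not called (adjusted p = 0.0579), but it was called higher in H1299 in the fit blocked on run (-0.70, adjusted p = 0.0078). SAMD9L, an antiviral translation inhibitor, was the 1 effector higher in H1299 (8.32 ± 0.54 against 9.77 ± 0.46, -1.45 ± 0.30).

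All 5 measured class I genes were higher in H1975, beside 20.5% of all genes. B2M, the light chain shared by class I molecules, was at 16.56, 16.41, 16.11 and 16.71 in the H1975 arrays and 14.73, 14.98, 15.06, 15.02 and 15.24 in the H1299 arrays. It was among the strongest genes of both lines and higher in H1975 (1.44 ± 0.21, adjusted p = 4.76e-05). HLA-F, a non-classical heavy chain, was at 12.26 ± 0.36 against 6.69 ± 0.63 (5.58 ± 0.31). Probes for the HLA heavy chains HLA-C, HLA-E, HLA-F and HLA-G may share signal between copies and alleles, so these are uncertain as single genes. PSMB9, an immunoproteasome subunit, was at 13.26 ± 0.32 against 10.17 ± 0.68, and TAPBP, the loading factor tapasin, at 13.27 ± 0.20 against 11.07 ± 0.43 (3.09 ± 0.32 and 2.20 ± 0.25). The trimming peptidases parted: ERAP2 was at 10.33, 11.14, 11.39 and 10.59 in the H1975 arrays and 6.28, 6.66, 6.37, 5.66 and 5.82 in the H1299 arrays, and ERAP1 at 10.47, 10.14, 10.63 and 9.90 in the H1975 arrays and 12.44, 12.46, 12.45, 12.40 and 12.01 in the H1299 arrays. ERAP2 was an H1975 gene (4.71 ± 0.28, adjusted p = 2.67e-09) and ERAP1 was higher in H1299 (-2.07 ± 0.22, adjusted p = 2.04e-06), both without overlap.

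Class II genes, usually those of professional antigen-presenting cells, were higher in H1975 in 6 of 7 cases (85.7%, beside 20.5% of all genes). Of these genes 3 were above the highest background probe set in H1975. CD74, the invariant chain, was at 12.35, 12.55, 12.21 and 12.02 in the H1975 arrays and 4.60, 5.48, 4.05, 3.46 and 3.80 in the H1299 arrays, and HLA-DRA at 8.77 ± 0.56 against 3.12 ± 0.28. HLA-DMA, which loads class II molecules, was at 12.07 ± 0.43 against 7.01 ± 0.39. The differences were 8.01 ± 0.34, 5.66 ± 0.27 and 5.06 ± 0.27, with H1299 in the background range for CD74 and HLA-DRA. CIITA, the master regulator of class II genes, was under the highest background probe set in both lines but called (5.74 ± 0.38 against 3.45 ± 0.82, 2.29 ± 0.36). Ligands for lymphocytes were divided. CD274, the checkpoint ligand PD-L1, was at 8.49, 8.68, 8.26 and 8.10 in the H1975 arrays and 6.70, 6.83, 6.98, 6.47 and 6.35 in the H1299 arrays, and ULBP2, a ligand of the natural killer receptor NKG2D, at 9.64 ± 0.61 against 5.25 ± 0.65, both higher in H1975 (1.72 ± 0.22, adjusted p = 1.34e-05, and 4.39 ± 0.35, adjusted p = 8.01e-08). MICB, another NKG2D ligand, and NECTIN2, an adhesion ligand, were higher in H1299 (9.73 ± 0.35 against 11.52 ± 0.34, -1.80 ± 0.24, and 11.28 ± 0.41 against 13.11 ± 0.11, -1.83 ± 0.23). For CD274 the line difference was 3.40 in the Omomyc arrays, and its change was -1.69 ± 0.28 (adjusted p = 0.00051).

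Of 8 receptor and adhesion genes of the cytokine list, which include toll-like receptors, 5 were higher in H1975 (62.5%, beside 20.5% of all genes). By limma 0 were higher in H1299, also 0 at an unadjusted p under 0.05. IL7R, the interleukin 7 receptor, was at 11.28, 11.21, 11.23 and 11.61 in the H1975 arrays and 3.07, 2.47, 2.70, 2.95 and 3.10 in the H1299 arrays. CD14, a co-receptor for bacterial lipid, was at 11.08 ± 0.69 against 3.35 ± 0.45. Both were near background in H1299 (8.47 ± 0.22, adjusted p = 5.63e-13, and 7.73 ± 0.32, adjusted p = 6.02e-11). CSF1, the macrophage growth factor, was at 13.92, 13.999, 14.19 and 13.85 in the H1975 arrays and 8.44, 8.44, 7.72, 7.93 and 8.01 in the H1299 arrays (5.88 ± 0.22). CCL2, a monocyte chemokine, was at 10.53 ± 0.18 against 3.23 ± 0.30 (7.30 ± 0.22), and CFB, complement factor B, at 12.99 ± 0.18 against 3.37 ± 0.37 (9.62 ± 0.23). CXCL2, a neutrophil chemokine, was the reverse at 6.90, 7.58, 6.61 and 5.07 in the H1975 arrays and 10.47, 10.84, 9.60, 8.80 and 9.50 in the H1299 arrays (-3.30 ± 0.47, adjusted p = 4.14e-05).

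Of the 5 NF-kB subunits 3 were higher in H1299, beside 20.0% of all genes. RELB, the subunit of the non-canonical pathway, was at 6.49, 7.23, 6.57 and 6.55 in the H1975 arrays and 10.02, 10.60, 9.83, 9.57 and 9.48 in the H1299 arrays. NFKB2, the precursor of its partner p52, was at 8.38 ± 0.55 against 10.73 ± 0.46. Both were higher in H1299 (-3.19 ± 0.27, adjusted p = 1.27e-07, and -2.36 ± 0.30, adjusted p = 1.13e-05), as was NFKB1 (-1.18 ± 0.27). RELA was not called (11.99 ± 0.43 against 12.03 ± 0.45, adjusted p = 0.926), with a 95% interval, unadjusted for the number of genes, of -0.64 to 0.54 for the difference, and the inhibitor gene NFKBIA was higher in H1975 (11.56 ± 0.41 against 9.19 ± 0.44, 2.37 ± 0.27).

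**Figure D4:**
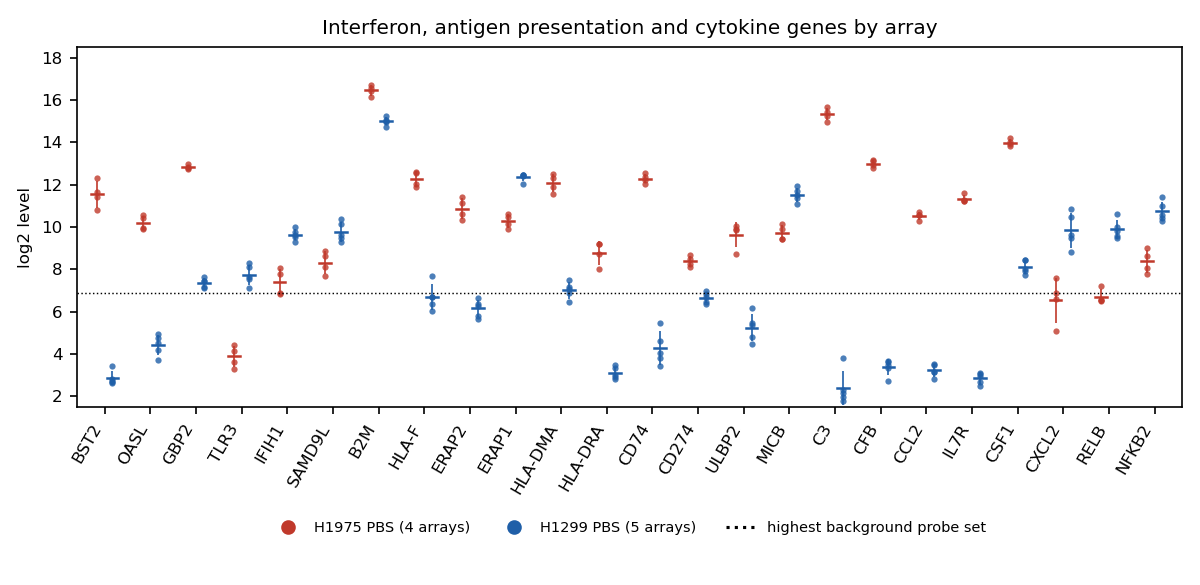
Log2 level of 24 interferon, antigen presentation, cytokine and NF-kB genes on each PBS array, red for the 4 H1975 and blue for the 5 H1299 arrays; horizontal bars are group means, vertical lines SD, and the dotted line is the highest background probe set (6.89). BST2, OASL, HLA-DRA, C3, CFB, CCL2 and IL7R are under 6.89 on all 5 H1299 arrays and above it in H1975, while TLR3, IFIH1, ERAP1, MICB, CXCL2, RELB and NFKB2 are higher in H1299.

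In the Omomyc arrays the immune differences kept their direction in the list medians. The antigen presentation median was 0.99, with 21 of 34 members called higher in H1975 and 4 in H1299. The interferon median was 1.47, with 27 and 8 of 47, where 3 were higher in H1299 under PBS. The cytokine median was 0.86, with 22 and 6 of 40. Of all 17687 genes 3903 were called higher in H1975 there and 3739 in H1299. The epithelial median was 0.30 and the mitotic median -0.79 there.

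**Figure D5:**
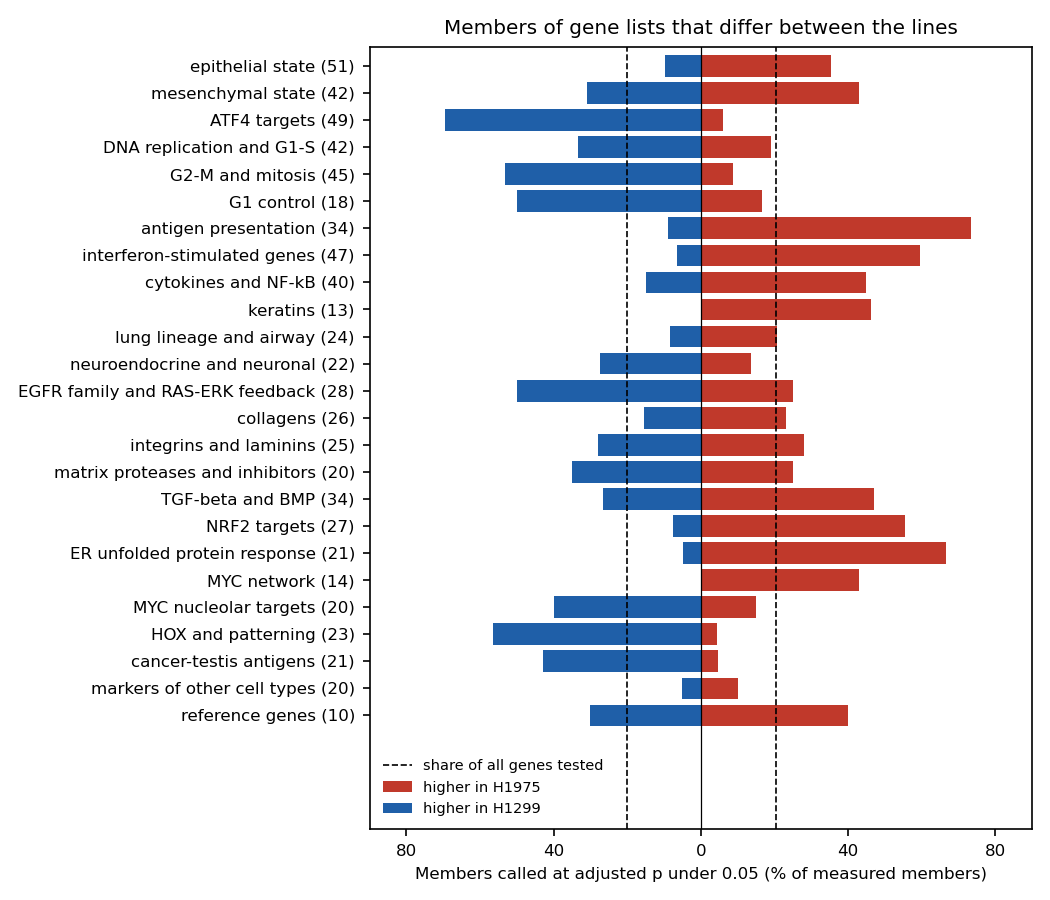
Share of measured members called higher in H1975 (red, to the right) and higher in H1299 (blue, to the left) for each gene list, with the number of measured members in brackets; dashed lines are the shares of all 17687 genes (20.5% and 20.0%). Antigen presentation (73.5%) and the unfolded protein response (66.7%) reach furthest toward H1975, and ATF4 targets (69.4%) toward H1299.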

How the data were processed

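The authors deposited log2 values for 24351 features on 26 biotin-labelled arrays, and the submitters' processing notes name RMA and Partek without versions. No build was given in the sources used here. Of these features 17709 had 1 symbol, 0 several and 6642 none. Each gene was represented by its probe set of highest mean (20 genes had more than 1), giving 17687 genes. The lines were compared with limma 3.58.1 (lmFit and eBayes, R 4.3.3), with 7 residual and 7.26 prior degrees of freedom. Random blocks used statmod 1.5.0. On simulated data for 17687 genes, 100 genes were changed by 2 and 100 by 1. The PBS comparison recovered 84 and 37 of them, with 8 false calls. No other gene was changed and no run effect was added, whereas 40.5% of genes were called in the data. The recovered shares hold for that setting only. Runs were read from the value distributions.

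The 170 named genes are the 15 largest and 15 smallest differences among called genes above the median level, up to 3 called members in each direction of each main list (2 of the others) by p, the member of each role with the largest difference, and 24 measured fixed genes. The remaining genes named were chosen after their values were seen. The 3 promoter motifs were also chosen with values known. The members and lists were chosen with earlier results of these data known. Some genes are not reported here. Replicate numbers are in the titles. Deviations of arrays with the same number in both lines correlated at 0.171, 0.243, 0.13 and 0.329, so by the rule of at least 0.1 in each pair the numbers pair the arrays, which also share a run. H1975 replicate 4 correlated best with H1299 replicate 5. With line and run fitted the correlations were -1, -0.138, -0.258 and -0.495. Run 1 holds 1 array of each line, which fixes its value at -1, so pairing and run cannot be told apart there. Run 2 holds replicates 2 and 3 of both lines, whose correlations were -0.138 and -0.258 once run was fitted. Fitting run makes the deviations within each run cancel, which pushes these correlations toward negative values in every run. They therefore cannot show whether any pairing remained beyond run. Alternatives covered scaling, filters, array weights, blocks, single runs and leaving out each array. The number of arrays limits the precision.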

Additional observations from a re-analysis of the deposited data

Results flagged for a closer look

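In 19 of 340 groups of arrays of the named genes, 1 array stood far from the others of its line by Dixon's gap test. Chance alone flags about 1 in 20 groups. The highest H1975 array stood apart for CDCA8 (9.29), COL5A1 (10.55), PLAUR (9.07), RELB (7.23) and ZEB1 (13.41), as log2 levels. The highest H1299 array stood apart for BMP2 (4.49), BST2 (3.41), C3 (3.80), CT83 (4.46), FBL (14.80), RBL1 (9.60) and VLDLR (8.98), as log2 levels. The lowest H1975 array stood apart for CCND2 (3.06), SESN2 (5.96), SOX9 (10.00) and ULBP2 (8.73), as log2 levels. The lowest H1299 array stood apart for ERAP1 (12.01), TYMS (12.97) and YARS1 (14.38), as log2 levels.

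For 39 of the 170 named genes the difference between the lines was not the same under PBS and under Omomyc by limma's interaction term, at adjusted p of 5.15e-11 to 0.0437. The values are the line difference under PBS minus that under Omomyc, as log2. It was below 0 for DDIT3 (-6.46), SLC7A11 (-5.85), STC2 (-5.01), PHGDH (-4.88), CHAC1 (-4.84), ASNS (-4.54), SESN2 (-3.40), GADD45A (-3.32), CEBPG (-3.06), SNAI2 (-3.05), CXCL2 (-2.85), YARS1 (-2.30), MYC (-2.12), SLC6A9 (-1.98), CD274 (-1.69), ATF4 (-1.59), NFKB2 (-1.39), EGFR (-1.13), RFC3 (-1.11) and MAGEA4 (-1.01). It was above 0 for BMP4 (5.48), ITGB8 (3.24), KLF5 (3.24), RGS4 (2.62), GBP2 (2.26), CCL2 (2.25), AKR1C3 (2.19), ARRDC4 (2.08), AKR1C2 (1.98), CSF1 (1.91), CCND1 (1.83), CPA4 (1.79), NEXN (1.62), SOX9 (1.59), TFRC (1.46), LRIG3 (1.37), HLA-DMA (1.22), CCND3 (1.16) and B2M (1.02). ATF4 and its targets DDIT3, SLC7A11, STC2, PHGDH, CHAC1, ASNS, SESN2, CEBPG, YARS1 and SLC6A9 are among those below 0.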

How the results depend on the processing

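The direction of the 166 called named genes was kept in every alternative fit to the PBS arrays. In the Omomyc arrays the differences of 5 named genes turned: CCND3 (-0.52), DDIT3 (3.45), GADD45A (1.01), KLF5 (-0.60) and SLC7A11 (0.99). The difference of VIM, which was not called, ranged from -0.1681 to 0.0081 when 1 array was left out and was above 0 without H1299 replicate 3 alone. The total of 7160 genes ranged from 6604 to 6975 when 1 array was left out, and was 5492, 7062 and 5841 within runs 1, 2 and 3. It was 7968 with quantile normalization, 7774 with median centring, 8432 with the run as a fixed block and 8316 as a random block. With the replicate number as a block it was 7953, which changed the calls of MKI67 (0.75, adjusted p = 0.0514) and MYC (0.51, adjusted p = 0.0574) and of no other named gene. With median centring CCND3, EGFR, MKI67 and MYC lost their calls, and MYC with quantile normalization too. Arrays of the same number in both lines lay in the same run. CDH1 was called with quantile normalization (0.62, adjusted p = 0.0276) and in the fit blocked on run (0.54, adjusted p = 0.0281).

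Of 52 counts of list members, 18 moved by over 1.5 times in at least 1 setting. In the main lists, G1 control genes higher in H1975 were 1 without moderation, 0 in run 1, 1 in run 3, 1 at an adjusted p under 0.01 and 1 with a difference of at least 1. DNA replication genes higher in H1975 were 5 in run 1 and 5 in run 3, and mitotic genes higher in H1975 were 2 with a difference of at least 1. In the Omomyc arrays ATF4 targets were 23 and 12, mitotic genes higher in H1975 were 7 and interferon-stimulated genes higher in H1299 were 8. The count of genes whose line difference changed with treatment was 2063 with the run as a block and 455 at an adjusted p under 0.01. With median centring the list medians of lung lineage (-0.06), integrins and laminins (-0.09), matrix proteases (-0.12) and markers of other cell types (-0.11) fell below 0. The causes were not tested. Signal over background limits sizes: 3075 called genes had their lower group at or under the highest background probe set, and 1447 had both.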

Other observations

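Shares of members called in the lists outside the main ones are read against 20.5% of all genes higher in H1975 and 20.0% higher in H1299. Of 23 HOX and patterning genes, which fix position along the body axis, 13 were higher in H1299 (56.5%) and 1 in H1975 (4.35%), with a median of -0.77. The mean of 17 of the 23 was above background in neither line, and that of 6 in H1299. HOXB2 (-9.20), HOXB7 (-6.21), HOXB9 (-6.35) and HOXC10 (-5.69) were near background in H1975. Of 21 cancer-testis antigens, germline proteins that some tumours express, 9 were higher in H1299 (42.9%) and 1 in H1975 (4.76%), with a median of -0.29. MAGEA4 was at 4.18 ± 0.28 against 14.18 ± 0.28 and MAGEA3 at 4.20 ± 0.56 against 11.74 ± 0.45, while CT83 was the 1 gene the other way (11.59 ± 0.42 against 3.68 ± 0.45, 7.91 ± 0.28). MAGE and GAGE genes have near-identical copies, so single members are uncertain. Of 22 neuroendocrine and neuronal genes 6 were higher in H1299 (27.3%) and 3 in H1975 (13.6%), with a median of -0.12. The 40.9% called in all is near the 40.5% of all genes, and 17 of the 22 were above background in neither line. L1CAM, a neural adhesion molecule, was at 9.26 ± 0.18 against 4.00 ± 0.57, and the granin SCG2 at 8.80 ± 0.22 against 6.30 ± 0.36. Both were among the 3 higher in H1975. CHGB, another granin, was among the 6 higher in H1299, with differences of -3.24 to -2.81 when 1 array was left out.

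Of 27 targets of NRF2, the regulator of antioxidant genes, 15 were higher in H1975 (55.6%) and 2 in H1299 (7.41%), with a median of 0.69. The count higher in H1299 was 5 with quantile normalization, with median centring (11 then higher in H1975) and with the run as a block, and 4 with the replicate number as a block. The 2 were PGD (-1.10) and SLC7A11, which is also an ATF4 target. The call of PGD was lost without H1975 replicate 3 (adjusted p = 0.0558) or 4 (adjusted p = 0.0605). EPHX1, an epoxide hydrolase, was at 11.19 ± 0.54 against 7.14 ± 0.25 (4.05 ± 0.26) and NQO1, a quinone reductase, at 14.30 ± 0.17 against 13.62 ± 0.29 (0.69 ± 0.22). The aldo-keto reductase AKR1C3 was at 13.14 ± 0.36 against 3.10 ± 0.24, and A549 at 17.37 ± 0.18. AKR1C genes are close copies. Of 14 genes of the MYC network 6 were higher in H1975 (42.9%) and 0 in H1299 (median 0.26; by limma, also 0 in H1299 at an unadjusted p under 0.05). MYC was at 13.68 ± 0.21 against 13.15 ± 0.15 (0.53 ± 0.20, adjusted p = 0.0485) and lost its call on leaving out any 1 of 7 arrays, with the replicate number as a block (adjusted p = 0.0574) and with median centring (adjusted p = 0.269). TXNIP and ARRDC4, arrestins that respond to glucose through MondoA, were at 13.49 ± 0.21 against 3.48 ± 0.52 and 8.07 ± 0.21 against 3.94 ± 0.49. Of 20 nucleolar targets of MYC 8 were higher in H1299 (5 without H1975 replicate 4) and 3 in H1975, with a median of -0.22, led by FBL, fibrillarin (10.54 ± 0.49 against 14.42 ± 0.22, -3.88 ± 0.25).

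In the EGFR family and RAS-ERK feedback list, 14 of 28 were higher in H1299 (50.0%) and 7 in H1975 (25.0%), with a median of -0.56. EGFR was at 11.17 ± 0.44 against 10.35 ± 0.26 (0.82 ± 0.25, adjusted p = 0.0138), and its call was lost without H1975 replicate 3 (adjusted p = 0.0526). MET was at 13.03 ± 0.28 against 11.55 ± 0.13 (1.48 ± 0.21). The ERK feedback genes SPRY4 (-5.08), DUSP6 (-3.71) and PHLDA1 (-3.62) were higher in H1299, and DUSP4, a phosphatase of the same pathway, was higher in H1975 (10.61 ± 0.22 against 4.41 ± 0.68, 6.20 ± 0.31). Of 34 TGF-beta and BMP genes 16 were higher in H1975 (47.1%) and 9 in H1299 (26.5%), with a median of 0.39. BMP4 was at 14.39 ± 0.15 against 6.29 ± 0.42, and BAMBI, a decoy receptor, at 9.62 ± 0.37 against 3.86 ± 0.41, while the latent binding protein LTBP4 was higher in H1299 (5.49 ± 1.31 against 10.58 ± 0.63). Collagens were near the share of all genes, with 6 of 26 higher in H1975 (23.1%) and 4 in H1299 (15.4%) and 18 above background in neither line (median -0.07). Called members include COL12A1 at 14.50 ± 0.25 against 9.56 ± 0.40 and COL6A2 at 7.85 ± 0.43 against 10.97 ± 0.39. Integrins and laminins were 7 and 7 of 25 (28% each, median 0.07), with ITGB8 at 8.60 ± 0.86 against 3.21 ± 0.52 and LAMB1 at 4.53 ± 0.63 against 11.55 ± 0.38. Matrix proteases and inhibitors were 5 and 7 of 20 (25.0% and 35.0%, median 0.04), with MMP14 at 13.69 ± 0.34 against 10.63 ± 0.27 and PLAUR, the urokinase receptor, at 8.68 ± 0.27 against 13.47 ± 0.23.

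Of 24 lung lineage and airway genes 5 were higher in H1975 (20.8%) and 2 in H1299 (8.33%), at or under the shares of all genes (median 0.10), with SOX9 at 10.71 ± 0.47 against 4.83 ± 0.69 and LAMP3 at 4.91 ± 0.52 against 8.74 ± 0.22. Of 10 reference genes 4 were higher in H1975 and 3 in H1299, with a median of -0.08. The count higher in H1299 was 1 without any of H1975 replicates 1, 3 and 4 and H1299 replicates 1, 3 and 4. GAPDH was at 17.31 ± 0.23 against 17.55 ± 0.29 and PPIA at 16.92 ± 0.37 against 16.92 ± 0.25, neither called. The call of GUSB (9.70 ± 0.23 against 10.39 ± 0.43) was lost on leaving out any 1 of 7 arrays. SDHA was at 12.25 ± 0.39 against 9.32 ± 0.56 (2.93 ± 0.30) and ACTB at 15.46 ± 0.13 against 13.998 ± 0.23 (1.46 ± 0.21). Among 6611 transcript clusters without a gene symbol, 1828 were called, 715 higher in H1975 and 1113 in H1299.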
